A study of Mus musculus with 5 samples.

Results

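The genes described here encode the phosphofructokinase step of glycolysis and its regulators in mouse E14 embryonic stem cells. They were taken by name: the 3 isozymes of 6-phosphofructo-1-kinase (Pfkl, Pfkm and Pfkp) and the 4 bifunctional PFKFB enzymes (Pfkfb1, Pfkfb2, Pfkfb3 and Pfkfb4), 7 of 22267 genes in the deposited table. The table gives 19 RefSeq transcripts for them, of which 8 were listed at 0 in all 5 libraries, and the values were summed per gene. All values are FPKM, fragment counts divided by transcript length and by the mapped fragments of the library, so levels of different genes are compared per length.

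Phosphofructokinase 1 adds the second phosphate to fructose 6-phosphate, the step that commits sugar to glycolysis, and works as a tetramer that can mix the liver (Pfkl), muscle (Pfkm) and platelet (Pfkp) subunits. Its strongest allosteric activator is fructose bisphosphate carrying the second phosphate at carbon 2, which PFKFB enzymes make with a kinase domain and remove with a phosphatase domain. Embryonic stem cells are known for a high rate of glycolysis.

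The 5 libraries, 1 per group, came from cells that the labels give as strain C57BL/6. Normal E14 cells and E14 cells made to overexpress both Hk2, a hexokinase, and Pkm2, a splice form of the pyruvate kinase gene Pkm, were sequenced while growing with leukemia inhibitory factor (LIF), the cytokine that holds the cells undifferentiated. Both kinds of cell were also sequenced after LIF was left out for 24 hours and then added, here called withdrawal or the 24 hour libraries, and the time between the addition and the harvest was not stated. The last library, the 40 day library, held overexpressing cells kept without LIF for that time, and no normal cells of that age were analysed here. The labels do not give the vector, its promoter or whether the overexpressing cells were 1 clone. Because a single library stands for each group, a difference between 2 libraries cannot be set against replicates.

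The levels of the genes named as transgenes were read first. Hk2 stood at 76.2 FPKM in the normal and 98.6 FPKM in the overexpressing LIF library, at 49.7 and 59.0 FPKM in the 24 hour pair and at 29.0 FPKM at 40 days. Pkm, which the gene sum does not split into M1 and M2 forms, stood at 510 and 567 FPKM with LIF, 611 and 564 FPKM in the 24 hour pair and 495 FPKM at 40 days. Both genes were less than 2-fold apart between cell types, and Pkm in the 24 hour pair was lower in the library labelled as overexpressing. The vector is not given, so whether transgene reads count in these values is unknown, and the values cannot decide whether overexpression took place. Overexpression is therefore used below as the label of a library only.

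The libraries held an estimated 38800000 to 42500000 fragments. The embryonic stem cell label was checked on markers, and all 9 pluripotency genes examined averaged above 1 FPKM over the libraries, with a summed level of 2883 to 3460 FPKM in the LIF and 24 hour libraries and 1969 FPKM at 40 days. Pou5f1, the defining pluripotency factor, stood between 807 and 1092 FPKM. The 6 endoderm markers summed to 1.80 to 2.64 FPKM in the other libraries and to 87.3 FPKM at 40 days, where Dab2 stood at 52.0 FPKM and Gata4 at 25.6 FPKM, while Sox17 and Afp were under 0.1 FPKM in every library. Sums of muscle, liver and blood markers stayed at or below 0.815, 0.274 and 0.580 FPKM, with only 2 of the 4 blood markers in the table. Fibroblast markers summed to 1.32 to 5.94 FPKM, with Col3a1 and Lum under 0.1 FPKM throughout. The 4 neural markers summed to 3.57 to 53.1 FPKM, mostly through Tubb3, which was listed at 0 in the normal 24 hour library, while Pax6, Sox1 and Nes stayed at or below 5.94 FPKM.

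The starts of the genes whose transcripts differed most are shown first, as the 250 bases before the RefSeq start (build GRCm38.p6, 5′ to 3′ on the gene's strand), with Pfkfb3 for contrast. Capitals mark matches on either strand to ACGTG, the core bound by hypoxia-inducible factors, to TTCNNNGAA, a STAT motif, and to GGGCGG, the GC box. The E-box CACGTG contains ACGTG on both strands.
Pfkl, chr10:78009808-78010057, minus strand: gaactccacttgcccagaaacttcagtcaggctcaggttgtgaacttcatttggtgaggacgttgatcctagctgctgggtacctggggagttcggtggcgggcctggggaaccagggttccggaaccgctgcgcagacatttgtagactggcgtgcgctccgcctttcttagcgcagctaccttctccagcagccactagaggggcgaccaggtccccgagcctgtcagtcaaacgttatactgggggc
Pfkp, chr13:6648772-6649021, minus strand: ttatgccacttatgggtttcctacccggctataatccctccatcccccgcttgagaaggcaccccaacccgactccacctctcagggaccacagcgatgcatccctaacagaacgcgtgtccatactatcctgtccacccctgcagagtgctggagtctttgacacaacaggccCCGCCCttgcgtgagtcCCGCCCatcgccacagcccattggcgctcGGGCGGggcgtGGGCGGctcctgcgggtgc
Pfkm, distal start, chr15:98092339-98092588, plus strand: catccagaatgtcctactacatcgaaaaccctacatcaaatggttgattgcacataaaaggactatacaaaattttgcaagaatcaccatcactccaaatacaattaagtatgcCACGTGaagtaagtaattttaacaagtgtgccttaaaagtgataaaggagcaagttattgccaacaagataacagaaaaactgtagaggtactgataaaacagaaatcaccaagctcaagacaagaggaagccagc
Pfkm, first internal start, chr15:98108221-98108470, plus strand: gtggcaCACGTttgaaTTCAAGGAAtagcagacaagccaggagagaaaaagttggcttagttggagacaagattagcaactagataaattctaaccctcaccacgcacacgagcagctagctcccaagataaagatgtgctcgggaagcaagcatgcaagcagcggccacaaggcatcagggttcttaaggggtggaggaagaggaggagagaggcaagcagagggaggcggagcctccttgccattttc
Pfkfb3, distal start, chr2:11553930-11554179, minus strand: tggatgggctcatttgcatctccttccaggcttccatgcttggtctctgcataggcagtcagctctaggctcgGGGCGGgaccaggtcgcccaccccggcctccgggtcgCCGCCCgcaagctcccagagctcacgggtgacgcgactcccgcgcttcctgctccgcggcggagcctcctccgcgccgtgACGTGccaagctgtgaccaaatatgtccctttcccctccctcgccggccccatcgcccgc
Pfkfb3, internal start, chr2:11502091-11502340, minus strand: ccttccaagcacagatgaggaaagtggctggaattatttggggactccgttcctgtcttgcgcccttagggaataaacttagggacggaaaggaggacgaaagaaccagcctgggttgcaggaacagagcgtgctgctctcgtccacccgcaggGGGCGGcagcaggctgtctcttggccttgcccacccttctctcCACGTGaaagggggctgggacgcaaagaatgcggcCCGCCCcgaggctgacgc

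All 7 genes matched the RefSeq promoter table, with 16 starts in all. The Pfkl window held no match to any of them, the Pfkp window held 4 GC boxes, and the distal Pfkm window held 1 E-box. Of the starts printed, only the first internal Pfkm window held a STAT match. The later Pfkm starts, not printed, held no match to any of the motifs. Both Pfkfb3 windows held the ACGTG core and 2 GC boxes each. Over all 16 starts, 6 held ACGTG, 3 the E-box, 1 the STAT motif and 6 a GC box. Over 32817 windows of the same length in the table, 16.6% held ACGTG, 6.02% the E-box, 7.01% the STAT motif and 32.7% a GC box. Some of the 16 member windows overlap each other, and the member counts were not tested against these shares. A match describes letters only and is not evidence of binding.

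In the mm9 assembly all 7 genes are protein-coding. Pfkl lies on chromosome 10 from 77449692 to 77472828 (minus strand), Pfkm on chromosome 15 from 97923020 to 97962878 (plus) and Pfkp on chromosome 13 from 6579014 to 6648023 (minus). Pfkfb1 lies on chromosome X from 147022772 to 147078421 (plus) and Pfkfb2 on chromosome 1 from 132585620 to 132625830 (minus). Pfkfb3 lies on chromosome 2 from 11393057 to 11423728 (minus) and Pfkfb4 on chromosome 9 from 108893947 to 108934737 (plus). The printed Pfkfb3 starts lie further apart than the 30672 bases of this Pfkfb3 model, so both cannot lie within it. The words distal and internal give the order of the RefSeq starts only. The library kit does not mark strand, so reads of overlapping genes cannot be told apart. Pfkm shares 817 bases with Senp1, which stood at 2.84 to 10.1 FPKM, and Pfkp shares 372 bases with Pitrm1, at 16.7 to 41.2 FPKM. Pfkfb1 overlaps Apex2 by 1640 bases, and Pfkfb2 overlaps Yod1 by 11927 bases. The gene next to Pfkl, Cfap410, lies 42 bases away and stood at 2.46 to 3.67 FPKM. Senp1 was highest in the overexpressing 24 hour library, as Pfkm was, and Pitrm1 in the normal 24 hour library, as Pfkp was, and the part of shared reads in those values was not tested.

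Pfkl, the liver-type subunit, was the most abundant member in each library. It was at 12.1 FPKM in the normal and 26.7 FPKM in the overexpressing LIF library, 67.1 and 56.0 FPKM in the normal and overexpressing 24 hour libraries, and 46.8 FPKM at 40 days. The normal library with LIF was thus the lowest and the normal 24 hour library the highest, 5.54-fold apart. Among the genes tested, defined as the 9590 with a mean of at least 1 FPKM and no missing cell, Pfkl moved from the 57.1 percentile of levels in normal cells with LIF to the 91.4 percentile in the normal 24 hour library. From the estimated fragments, counting error alone gave 95% exact Poisson intervals of 11.5 to 12.7 FPKM for the lowest library and 65.7 to 68.4 FPKM for the highest.

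Pfkm, the muscle-type subunit, stood at 8.78 FPKM in the normal and 11.01 FPKM in the overexpressing LIF library, at 22.7 and 31.6 FPKM in the normal and overexpressing 24 hour libraries, and at 13.0 FPKM at 40 days. The overexpressing 24 hour library was the highest. Pfkp, the platelet-type subunit, stood at 8.09 and 4.56 FPKM with LIF, 19.2 and 13.5 FPKM in the 24 hour libraries and 6.73 FPKM at 40 days. The normal 24 hour library was the highest. Its overexpressing libraries lay below the normal ones in both cultures, and its 40 day value lay between the 2 libraries with LIF.

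**Figure D1:**
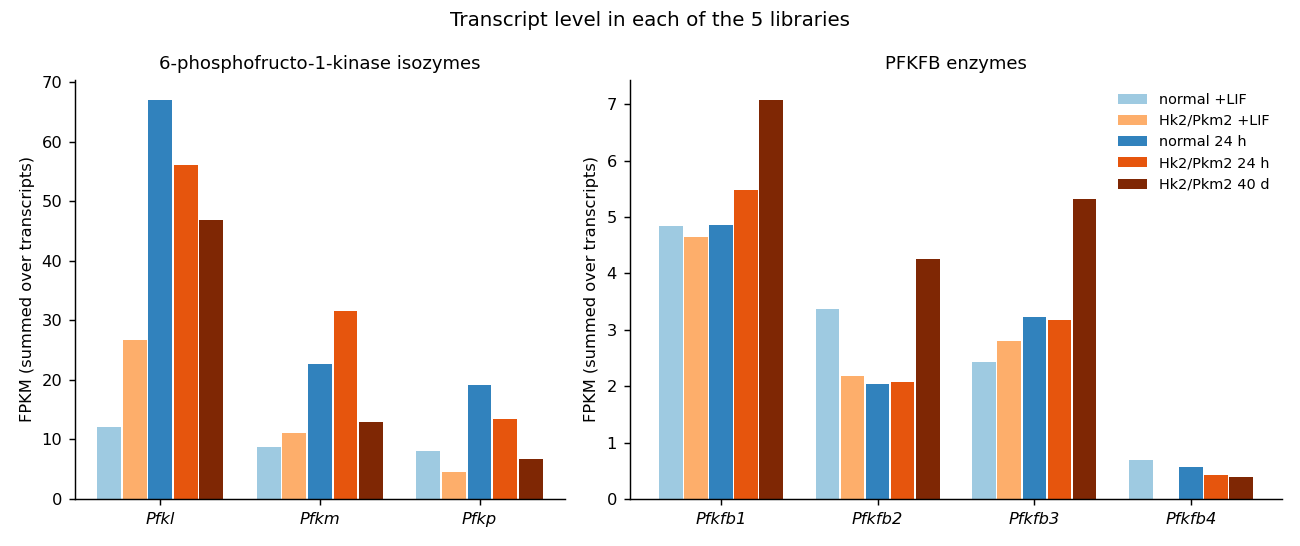
Transcript level in FPKM (vertical axis, linear, separate scale for each panel) of the 3 phosphofructokinase isozymes and the 4 PFKFB enzymes, with 1 bar per library. Pfkl, Pfkm and Pfkp stand higher in both 24 hour libraries than in both LIF libraries, whereas Pfkfb1, Pfkfb2 and Pfkfb3 are highest in the 40 day library.

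The 3 isozymes together summed to 29.0 FPKM in the normal and 42.3 FPKM in the overexpressing LIF library, to 109 and 101.1 FPKM in the 24 hour libraries and to 66.5 FPKM at 40 days. Pfkl held 41.8% of that sum in normal cells with LIF and 55.4% to 70.4% in the other 4 libraries, with the highest share at 40 days. Pfkp held 27.9% in normal cells with LIF and 10.1% to 17.6% elsewhere. Pfkm held between 19.5% and 31.3%. The normal library with LIF was therefore the one in which the 3 isozymes were closest in level, and Pfkl stood 1.496-fold as high as Pfkp there, against 6.96-fold as high at 40 days.

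**Figure D2:**
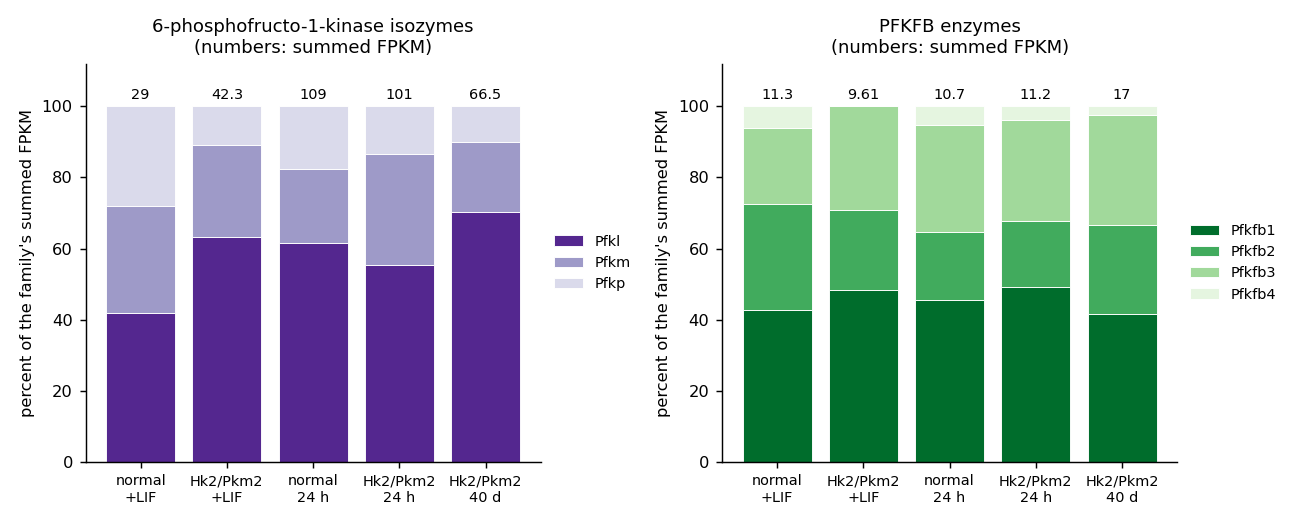
Share of each gene in the summed FPKM of its family (vertical axis, percent) in the 5 libraries, with the summed FPKM above each bar. Pfkl takes 41.8% of the isozyme sum in normal cells with LIF and more in every other library, while Pfkfb1 takes 41.6% to 49.1% of the PFKFB sum.

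The PFKFB enzymes were far less abundant, with sums of 9.61 to 11.3 FPKM in the LIF and 24 hour libraries and 17.0 FPKM at 40 days. The isozyme sum was 2.56 times the PFKFB sum in normal cells with LIF, 4.40 times in overexpressing cells with LIF, 10.2 and 9.07 times in the 24 hour libraries and 3.91 times at 40 days. The ratio was thus highest in the 24 hour libraries, where the isozymes were high and the PFKFB sum was not.

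Pfkfb1, the form known from liver and skeletal muscle, was the most abundant of the 4 in each library. Its levels were 4.85 and 4.64 FPKM in the normal and overexpressing LIF libraries, 4.85 and 5.48 FPKM in the 24 hour libraries and 7.08 FPKM at 40 days. The Poisson intervals of the first 4 libraries overlapped, the lowest at 4.16 to 5.17 FPKM and the highest at 4.92 to 6.08 FPKM, and that of the 40 day library, 6.47 to 7.73 FPKM, lay above them. Apex2, which overlaps Pfkfb1, stood above it in each library, and the part of shared reads in the Pfkfb1 values was not tested.

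Pfkfb3, the inducible form with high kinase over phosphatase activity, stood at 2.43 and 2.79 FPKM with LIF, 3.22 and 3.17 FPKM in the 24 hour libraries and 5.31 FPKM at 40 days. The 40 day library was again the highest. Pfkfb2, known from heart and as a target of Akt kinases, stood at 3.36 and 2.18 FPKM with LIF, 2.03 and 2.07 FPKM in the 24 hour libraries and 4.25 FPKM at 40 days, so the normal library with LIF came second. Pfkfb4, known from testis and hypoxic cells, was at 0.687 FPKM in the normal LIF library, 0.558 and 0.431 FPKM in the 24 hour libraries and 0.389 FPKM at 40 days. It was listed at 0 in overexpressing cells with LIF, where 3 fragments would give about 0.0228 FPKM. Between 51 and 86 fragments were estimated for it in the other libraries. What a listed 0 stands for is not stated, so a failed estimate and absence cannot be told apart. Of the 9590 genes tested, 749 are listed at 0 somewhere. With a mean of 0.413 FPKM, Pfkfb4 did not pass the filter, so 6 of 7 members enter the counts below.

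The sum over transcripts hid a split for 3 genes. The FPKM of Pfkm in both LIF libraries and at 40 days was assigned wholly to NM_001163487, which stood at 8.78 and 11.01 FPKM with LIF, 15.3 and 16.6 FPKM in the 24 hour libraries and 13.0 FPKM at 40 days. A second transcript, NM_021514, was given 7.41 FPKM in the normal and 14.96 FPKM in the overexpressing 24 hour library and was listed at 0 in the other 3. It made up 32.7% and 47.3% of the gene there. Pfkfb2 was given a second transcript in 3 libraries, 1.26 FPKM of NM_001162415 in normal cells with LIF and 0.762 and 1.31 FPKM of the noncoding NR_027859 in the overexpressing 24 hour and 40 day libraries. The main Pfkfb2 transcript alone, NM_008825, stood at 2.10 and 2.18 FPKM with LIF. Pfkfb3 had a second transcript, NM_001177755, in the normal 24 hour library (0.896 FPKM) and at 40 days (0.973 FPKM). The sources used here do not say how fragments shared by such transcripts were divided. Pfkl, Pfkp, Pfkfb1 and Pfkfb4 have 1 transcript each in the table.

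**Figure D3:**
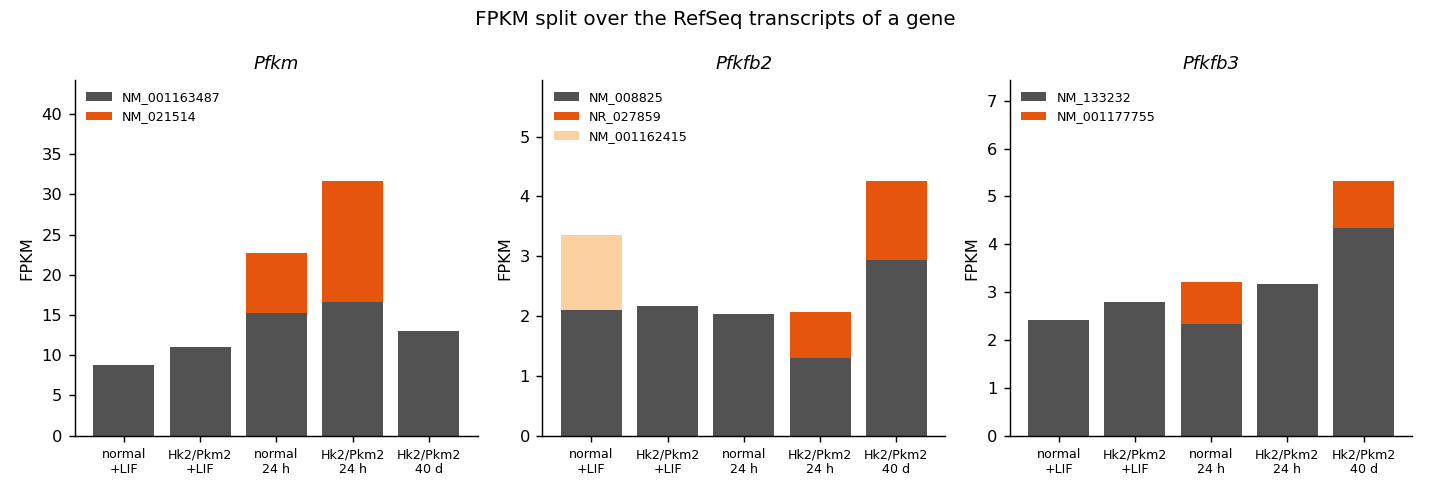
FPKM (vertical axis) of Pfkm, Pfkfb2 and Pfkfb3 in the 5 libraries, stacked by RefSeq transcript. The second Pfkm transcript appears only in the 24 hour libraries, at 7.41 and 14.96 FPKM.

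The first comparison asked how the 24 hour withdrawal of LIF went with these genes in normal cells. Pfkl (log2 ratio 2.38), Pfkm (1.28) and Pfkp (1.15) were at least 2-fold higher after withdrawal, on the scale of log2(FPKM + 1), which understates changes of low genes. Pfkfb3 (0.30), Pfkfb1 (0.00071) and Pfkfb2 (-0.52) were within 2-fold. Thus 3 of 6 members were at least 2-fold higher, all of them isozymes, where 4.62% of all genes tested were higher, 5.51% lower and 10.1% different in either direction. The members' median was 0.73 against -0.0055 over all genes, and Pfkl ranked 93 from the highest of 9590. Pfkl was also the one member outside the middle 95% of all genes in any comparison. On the transcript NM_001163487 alone, Pfkm had a log2 ratio of 0.73 and was no longer 2-fold higher. In the same comparison 5 of 9 pluripotency markers were at least 2-fold lower, among them Klf4 (53.1 to 5.48 FPKM) and Nanog (150.0 to 59.3 FPKM), and their part in the isozyme values was not tested.

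Pfkm (1.44), Pfkp (1.38) and Pfkl (1.04) were also at least 2-fold higher after withdrawal in the cells labelled as overexpressing. Pfkfb1 (0.20), Pfkfb3 (0.14) and Pfkfb2 (-0.050) were within 2-fold. The count of 3 of 6 stands beside 5.79% of genes tested that were higher, 6.07% that were lower and 11.9% in either direction, and the members' median of 0.62 beside 0.0042. Pfkl was closest to the threshold here, and its LIF level was 2.21-fold that of normal cells. On NM_001163487 alone Pfkm had a log2 ratio of 0.55. Here 4 of 9 pluripotency markers were at least 2-fold lower.

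**Figure D4:**
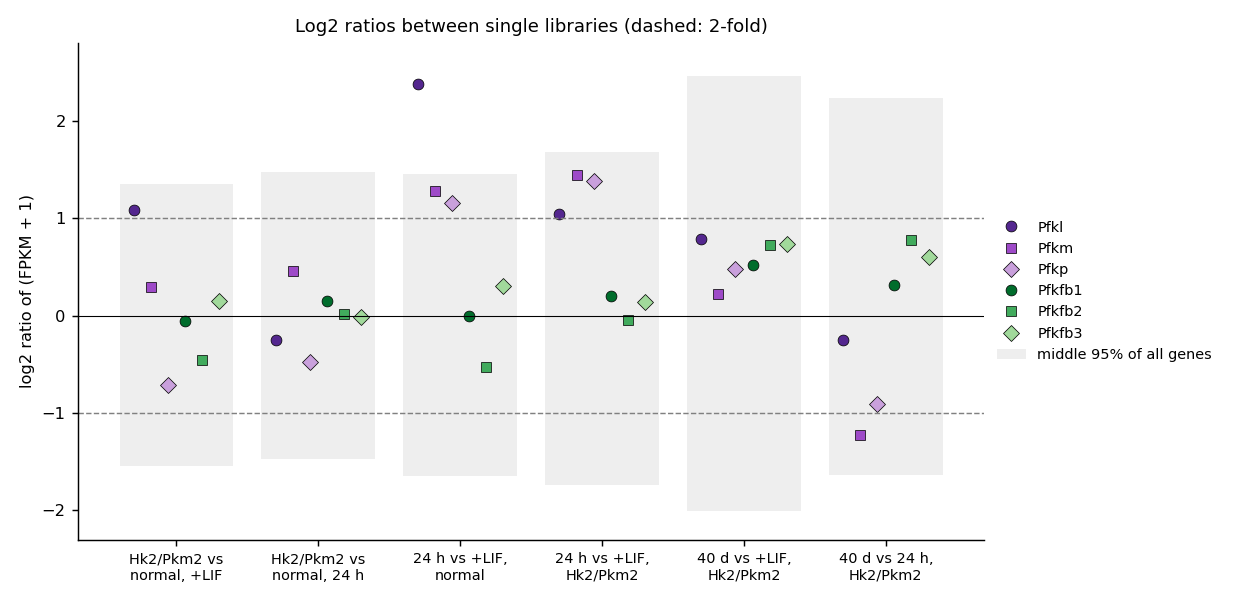
Log2 ratios of FPKM + 1 between pairs of libraries (vertical axis) for the 6 members with a mean of at least 1 FPKM, in the 6 comparisons. Grey boxes span the middle 95% of the 9590 genes tested, dashed lines mark 2-fold, and only Pfkl in the withdrawal of normal cells lies outside its box.

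Across both cell types, limma, a linear model fitted to all 9590 genes over 4 libraries, gave culture estimates of 1.36 ± 0.11 for Pfkm, 1.27 ± 0.14 for Pfkp and 1.71 ± 0.43 for Pfkl (log2 scale, SE). The SE of Pfkl was the widest of the members, with ratios of 2.38 and 1.04 in the 2 cell types. On the transcript NM_001163487 alone the estimate of Pfkm was 0.64 ± 0.12. None passed after Benjamini-Hochberg adjustment over all genes, with limma adjusted p of 0.324 for Pfkm and Pfkp and 0.402 for Pfkl. Unadjusted, the limma p was 0.0028 for Pfkm, 0.0058 for Pfkp and 0.0414 for Pfkl, so 3 of 6 members were under 0.05 where 12% of all genes were. With no filter on low values Pfkl was at 0.104, which left 2. Limma called 0 of 9590 genes, with 1154 under an unadjusted p of 0.05. The estimates of Pfkfb3 (0.22 ± 0.17), Pfkfb1 (0.10 ± 0.16) and Pfkfb2 (-0.29 ± 0.22) were within 1.5 SE of 0. With 1 library per group, a different response of the cell types and noise between libraries both enter the residual of this fit and cannot be told apart.

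The second question was how cells labelled as overexpressing differed from normal cells. With LIF, Pfkl was 2-fold higher (12.1 and 26.7 FPKM, log2 ratio 1.08), Pfkm (0.30) and Pfkfb3 (0.15) were within 2-fold, as were Pfkp (-0.71), Pfkfb2 (-0.46) and Pfkfb1 (-0.051). That is 1 of 6 members higher, where 4.11% of genes tested were higher, 5.32% lower and 9.43% different in either direction. In the 24 hour libraries 0 of 6 differed 2-fold, where 9.37% of genes did, 4.19% higher and 5.18% lower. Pfkl there had a log2 ratio of -0.26, the opposite sign to that with LIF, while Pfkm (0.46) and Pfkp (-0.48) kept the signs they had with LIF.

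Across both cultures the cell type estimates were -0.59 ± 0.14 for Pfkp, 0.38 ± 0.11 for Pfkm and 0.41 ± 0.43 for Pfkl (limma, SE, 4 libraries). None passed, at limma adjusted p of 0.516, 0.52 and 0.695, and Pfkp was the 1 of 6 members with an unadjusted p under 0.05 (0.0343), where 9.57% of all genes were. Pfkm joined it, making 2, with a pseudocount of 0.1, with no filter on low values and under quantile normalization, at unadjusted limma p of 0.0481, 0.0494 and 0.0375. Limma called 0 of 9590 genes for cell type, with 918 under an unadjusted p of 0.05. Pfkfb1 (0.048 ± 0.16), Pfkfb2 (-0.22 ± 0.22) and Pfkfb3 (0.065 ± 0.17) lay within about 1 SE of 0. In the overexpressing libraries of both cultures, a smaller part of the isozyme sum came from Pfkp. It held 10.8% against 27.9% with LIF and 13.4% against 17.6% after withdrawal. With LIF the share of Pfkl was higher (63.2% against 41.8%) and that of Pfkm lower (26.0% against 30.3%). After withdrawal the share of Pfkm was higher (31.3% against 20.8%) and that of Pfkl lower (55.4% against 61.6%).

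The third question was how the 40 day library differed from the other libraries of overexpressing cells. Against LIF, 0 of 6 members differed 2-fold, where 22.3% of genes tested did, 14% higher and 8.31% lower. Each of the 6 nevertheless stood above 0, from Pfkm (0.22) to Pfkl (0.79), with a median of 0.62 against 0.076 over all genes. Pfkfb3 (0.73) and Pfkfb2 (0.73) came next to Pfkl as deposited. They stood at 0.47 and 0.42 under quantile normalization, and at 0.49 and 0.31 on the top transcript of each gene. Scaling the libraries to a common median shifted the median of all genes by -0.10 in this comparison and left all 6 members above 0, at 0.10 to 0.67. Of the genes 2-fold different, 62.8% were higher as deposited, 55.9% under that scaling and 52.3% under quantile normalization.

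Against the 24 hour library, 1 of 6 members, Pfkm (-1.22), was at least 2-fold lower at 40 days, where 5.78% of genes tested were lower, 12.1% higher and 17.8% different in either direction. Pfkp (-0.91) and Pfkl (-0.25) were lower, and Pfkfb2 (0.78), Pfkfb3 (0.60) and Pfkfb1 (0.32) higher, all within 2-fold on the log2(FPKM + 1) scale. Without the added 1 FPKM, Pfkp stood at 0.498 times and Pfkfb2 at 2.06 times its 24 hour level, both just beyond 2-fold. The isozymes and the PFKFB enzymes thus lay on opposite sides of 0. On NM_001163487 alone Pfkm stood at -0.34, so its 2-fold difference rested on the second transcript. Pfkp reached -1.03 when libraries were scaled to a common median, which adds it to the count. The share of higher genes among those 2-fold different went from 67.6% to 59.4% under that scaling and to 54.0% under quantile normalization. The comparisons with the 24 hour library and with LIF share the 40 day library, in which the endoderm markers summed to 87.3 FPKM and 6 of 9 pluripotency markers were at least 2-fold lower than with LIF, and the part of other cell types in these values was not tested. In bulk RNA, fewer cells of a type and less RNA per cell cannot be told apart.

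The other genes that act on fructose phosphates were read as a list of 9, of which 8 were tested. Tigar, a phosphatase that removes the activator made by PFKFB enzymes, stood at 26.9 and 27.5 FPKM in the normal and overexpressing LIF libraries, 14.1 and 12.8 FPKM in the 24 hour libraries and 12.3 FPKM at 40 days. Both LIF libraries lay above the other 3, with a culture estimate of -0.97 ± 0.10 that did not pass (limma adjusted p = 0.324). Pfkl stood at 0.449 times the level of Tigar in normal cells with LIF and 4.77 times in the normal 24 hour library. Fbp2, the muscle form of the enzyme that reverses the phosphofructokinase step, stood at 0.178 and 0.746 FPKM with LIF, 0.0922 and 0.476 FPKM in the 24 hour libraries and 4.56 FPKM at 40 days. Fbp1, the liver form, stayed at or below 0.445 FPKM.

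Gfpt2, which diverts fructose 6-phosphate into hexosamine synthesis, stood at 38.5 and 28.2 FPKM with LIF, 24.9 and 13.9 FPKM in the 24 hour libraries and 15.4 FPKM at 40 days. Its culture estimate of -0.79 ± 0.14 did not pass (limma adjusted p = 0.345). Pgm3, a later enzyme of that branch, stood at 3.61 and 8.97 FPKM with LIF, 4.38 and 8.32 FPKM in the 24 hour libraries and 1.03 FPKM at 40 days. In the withdrawal of normal cells 0 of the 8 genes of this list were 2-fold different, and in that of overexpressing cells 2 were lower, Tigar and Khk, the latter listed at 0 after withdrawal. At 40 days against LIF, Fbp2 was higher and Pgm3 and Tigar lower. Of all genes tested, 10.1% and 11.9% differed 2-fold in the withdrawal of normal and overexpressing cells, and 22.3% at 40 days against LIF.

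**Figure D5:**
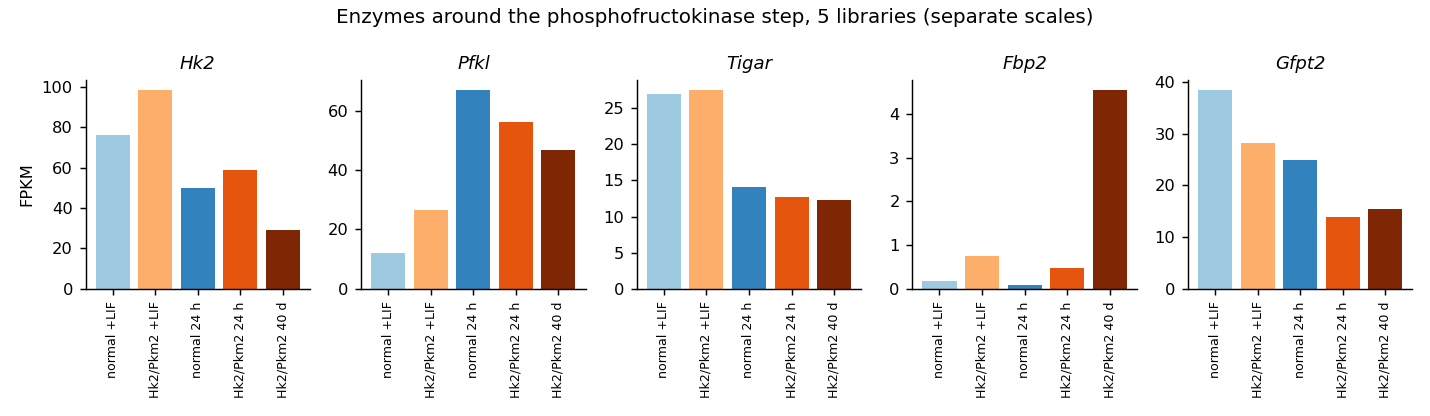
FPKM (vertical axes, linear, separate scales) of Hk2, Pfkl, Tigar, Fbp2 and Gfpt2 in the 5 libraries. Tigar stands at 26.9 and 27.5 FPKM with LIF and at 12.3 to 14.1 FPKM in the other 3 libraries, and Pfkl is lower in the LIF libraries than in the other 3.

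The remaining glycolytic enzymes and sugar or lactate transporters gave 18 of 22 genes tested. Gpi1 was left out for missing cells, and Eno1 was listed at 0 in all 5 libraries, a value whose meaning is not stated. After withdrawal in normal cells 2 of the 18 were 2-fold higher, Slc16a3 (1.13), a lactate exporter, and Ldhb (1.07), a lactate dehydrogenase subunit, and 1 lower, Aldoc, listed at 0 after withdrawal, with a list median of 0.23. In overexpressing cells Slc16a3 (1.05) was higher and Slc2a3 (-2.31), a glucose transporter, lower, with a median of 0.059. The shares of all genes tested that differed 2-fold were 10.1% in normal and 11.9% in overexpressing cells. Each of the 3 isozymes had a higher ratio in normal cells than any of these 18 genes, with Slc16a3 next. In overexpressing cells Pfkm and Pfkp lay above all 18, and Pfkl (1.04) lay just under Slc16a3. For Pfkm this order rested on the second transcript, since on NM_001163487 alone its ratios of 0.73 and 0.55 lay below those of Slc16a3 in both cell types. Hk2, the hexokinase that opens the pathway, was lower in the 24 hour than in the LIF library of both cell types, within 2-fold. Aldoa, which splits the product of phosphofructokinase, stood at 701 and 690 FPKM with LIF, 831 and 918 FPKM in the 24 hour libraries and 588 FPKM at 40 days.

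Between cell types with LIF, 3 of the 18 were 2-fold higher, Slc2a3 (1.54), Slc16a3 (1.23) and Eno2, and 1 lower, Aldoc. Eno2 was listed at 0 in the normal and Aldoc in the overexpressing library. After withdrawal only Slc16a3 (1.14) differed. At 40 days against LIF, Hk2 (-1.73) and Slc2a1 (-1.67), a glucose transporter, were lower, while Eno2 (1.04 to 4.21 FPKM) and Aldoc, listed at 0 with LIF, were higher. Pfkl, at 0.79, lay on the other side of 0 from Hk2 there. Of all genes tested, 9.43% differed 2-fold between cell types with LIF, 9.37% after withdrawal and 22.3% at 40 days against LIF.

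Known regulators of the members gave 14 of 15 genes tested. In the withdrawal of normal cells 1 was higher, Fzr1, an activator of the ubiquitin ligase that marks PFKFB3 protein for decay, at 15.2 and 57.7 FPKM, and in overexpressing cells 1 was lower, Prkab1, a subunit of the energy-sensing kinase AMPK. These counts stand beside 10.1% and 11.9% of all genes tested that differed 2-fold. Fzr1 in overexpressing cells went from 19.3 to 11.1 FPKM, so the ratios of the 2 cell types had opposite signs, and that difference was not tested. Hif1a, the hypoxia-inducible factor that drives Pfkfb3 and Pfkfb4, stood at 31.7 and 36.8 FPKM with LIF, 34.8 and 38.3 FPKM in the 24 hour libraries and 52.7 FPKM at 40 days. Myc stood at 35.9 and 36.1 FPKM with LIF, 53.8 and 48.8 FPKM in the 24 hour libraries and 24.3 FPKM at 40 days.

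Other targets of hypoxia-inducible factors gave 14 of 16 genes tested, and they did not move in a common direction. After withdrawal in normal cells 2 were 2-fold higher, Bnip3 (2.10) and P4ha2 (1.55), with a list median of -0.032, where 10.1% of all genes tested differed. In overexpressing cells 3 were higher and 2 lower, where 11.9% of all genes tested differed. Bnip3 (3.26) and Vegfa (-1.68) were at the ends there, with a median of 0.028. At 40 days against LIF 4 were higher and 2 lower, with a median of 0.032, where 22.3% of all genes tested differed. The higher ones were P4ha1 (2.44), Ddit4 (2.17), P4ha2 (1.98) and Vegfa (1.76), and the lower ones were Ankrd37 (3.94 to 0.475 FPKM) and Kdm3a (27.3 to 8.37 FPKM). Against the 24 hour library 5 were higher and 3 lower at 40 days (median -0.016), where 17.8% of all genes tested differed.

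Genes most like Pfkl, Pfkm and Pfkp, the members whose log2(FPKM + 1) ranged over at least 1, were sought among 8841 genes never listed at 0. The measure was the largest gap between the centred log2 profiles of 2 genes over the 5 libraries. Closest to Pfkl was Lars2, a mitochondrial leucyl-tRNA synthetase (gap 0.27), at 4.23 and 14.6 FPKM with LIF, 36.6 and 21.8 FPKM in the 24 hour libraries and 24.3 FPKM at 40 days. Memo1 (0.34) and Zfp830 (0.41) followed. Closest to Pfkm was Aebp2, a partner of Polycomb complex 2 (gap 0.25), at 9.38 and 9.62 FPKM with LIF, 22.2 and 25.03 FPKM in the 24 hour libraries and 9.72 FPKM at 40 days, then Cdk5r2 (0.27) and Cgnl1 (0.28). Closest to Pfkp was Bcl11a, a zinc finger factor (gap 0.17), at 1.71 and 0.422 FPKM with LIF, 3.87 and 3.32 FPKM in the 24 hour libraries and 1.10 FPKM at 40 days, then Brat1 (0.27). Bcl11a and Cdk5r2 were low genes, and the added 1 FPKM narrows their profiles on this scale, so their gaps depend on it.

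The isozymes were not each other's nearest profiles. The gap between Pfkm and Pfkp was 0.59, between Pfkl and Pfkm 0.72 and between Pfkl and Pfkp 1.31. Among all genes ranked by likeness to Pfkm, Pfkp came at rank 97 and Pfkl at rank 386. Profiles over 5 libraries without replicates are descriptions only.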

How the data were processed

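FPKM per RefSeq transcript, normalized by the authors for transcript length and mapped fragments, was taken as deposited. TopHat2 2.0.7, Cufflinks 2.0.2 and build mm9 are named in the submitters' processing notes. The sources used here do not give other settings. Per the labels' protocols, a TruSeq kit served for library preparation.

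Symbols came from a RefSeq table of GRCm38.p6, which matched 28066 of 28698 transcripts. FPKM was summed per gene, and 337 genes with a hyphen in a cell were left out (none a member). Genes with a mean of at least 1 FPKM over the libraries were tested, 9590 in all. Ratios used log2(FPKM + 1), and a 2-fold ratio between 2 libraries was counted without a test. Limma 3.58.1 (R 4.3.3; lmFit, eBayes with trend, Benjamini-Hochberg) was fitted with terms for cell type and culture to the 4 LIF and 24 hour libraries, leaving 1 residual degree of freedom. Its script was tested on simulated data, where calls were required only at a spread far below the fitted one. That test therefore does not show which changes would pass at the spread of these libraries. Positions are from GENCODE vM1 (mm9), and promoter sequences from RefSeq (GRCm38.p6).

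Depth was estimated from the FPKM step of 1 fragment in transcripts with 1 model, assuming fragments of 200 bases. Fragments per member used the longest GENCODE transcript. Intervals are 95% exact Poisson, cover counting error only, and are approximate.

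Named were the 7 members, up to 4 genes per pathway list and comparison that were 2-fold different, Hk2 and Pkm, and the 3 genes most like each variable member, of which 1 is not reported here. Other values of list genes were chosen after they were seen. Members and lists were chosen with earlier results of these data known. Alternatives were another pseudocount (0.1), no filter, 2 scalings, the top transcript per gene, hyphens read as 0, and eBayes without trend.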

Additional observations from a re-analysis of the deposited data

Results flagged for a closer look

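Between cell types, 4 members had ratios of opposite sign in the 2 cultures as deposited, and with 1 library per group the difference was not tested. Pfkl had a log2 ratio (overexpressing over normal) of 1.08 with LIF and -0.26 in the 24 hour libraries. Pfkfb2 had -0.46 and 0.017, and its value with LIF included 1.26 FPKM of a transcript listed at 0 in the other 4 libraries. On the top transcript alone both signs of Pfkfb2 turned, to 0.034 and -0.40. Pfkfb1 had -0.051 and 0.15, with the first at 0.0025 when libraries were scaled to a common median. Pfkfb3 had 0.15 and -0.016, and the second was above 0, like the first, under quantile normalization (0.059), under scaling to a common median (0.024) and on the top transcript (0.33). Of the 4, only Pfkl kept opposite signs with the same direction under every alternative run.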

How the results depend on the processing

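No paired analysis was possible because each group has 1 library, so no replicate numbers could serve as a block. The limma model did hold cell type and culture as additive terms. The count of members at least 2-fold different at 40 days against 24 hours, 1 as reported, was 2 with a pseudocount of 0.1 (Pfkfb2 at 1.01 joined), 2 under quantile normalization and 2 under scaling to a common median (Pfkp at -1.07 and -1.03 joined), and 0 on the transcript with the highest mean. The other 32 counts under alternatives stayed within 1.5 times. Of the member ratios 178 moved by less than 1.5-fold, and the other 2 were those of Pfkm on its top transcript, 0.55 for withdrawal in overexpressing cells and -0.34 for 40 days against 24 hours. That alternative also took the share of Pfkm in the overexpressing 24 hour library from 31.3% to 19.3%, and the 2-fold counts of both withdrawals from 3 to 2. All 60 alternative limma estimates kept their sign and did not pass. Scaling to a common median shifted all-gene medians by -0.10 and -0.11 in the 40 day comparisons and took the share of higher genes among 2-fold calls from 62.8% and 67.6% to 55.9% and 59.4%; quantile normalization took it to 52.3% and 54.0%. The counting intervals of Pfkfb1 overlapped outside the 40 day library, and whether its differences there exceed counting error was not tested. Lone libraries leave the spread between cultures unmeasured.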
